A study of Mus musculus with 13 samples.

Results

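Mouse neural stem cells made from fibroblasts (iNSC) were set against cultures of neural stem cells that were not induced (NSC). The members were the arrays titled iNSC and NSC with a clone number, 6 of the 13 arrays in the series, and all probes on them were considered. The iNSC were neural stem cells induced from mouse embryonic fibroblasts, and the labels give neither the conversion factors nor the passage. NSC were in vitro neural stem cells, and the labels do not state the donor tissue or stage. Both groups are labelled as strain C3H and had 3 clones each, numbered 1 to 3, with 1 array per clone. Each line was thus read in single clones, and the p-values measure the spread between clones of one line. The other 7 arrays, of embryonic stem cell progenitors, fibroblasts (MEF), embryonic stem cells and cells in vivo, served to normalize the arrays and as side values.

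Neural stem cells are kept in culture by epidermal and fibroblast growth factors, divide in an undifferentiated state, and can give neurons, astrocytes and oligodendrocytes. They keep the transcription factor code of the part of the neural tube they came from: Otx and Dlx factors mark anterior levels, and Hox factors are used behind the hindbrain border. Conversion of fibroblasts by transcription factors yields cells with a similar growth habit from a mesodermal starting cell. The comparison asks in which genes the cultures made by this route differ from the others.

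On iNSC arrays 40.8% to 43.7% of probes were detected, against 42.7% to 44.0% on NSC arrays, and the median signals were 101.7 to 105.1 and 106 to 107.7 intensity units. Across the genes tested, iNSC arrays correlated with each other at 0.974 to 0.988 and NSC arrays at 0.956 to 0.979, while pairs of an iNSC and an NSC array gave 0.896 to 0.927. These correlations run across genes, which are not independent replicates. NSC clones differed more among themselves: 667 genes spanned at least 2-fold over the NSC clones, against 352 over the iNSC clones. All 7 defining neural stem markers were detected on every iNSC and NSC array. The MEF array also read all 7 above its lowest detected level of 4.596 (log2), from Olig2 at 4.81 to Vim at 12.06. Detection of these markers alone therefore does not set the 2 groups apart from that array.

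A gene was tested if its probe was detected on at least 3 of the 6 arrays, which left 7952 genes. In a limma fit of the 6 arrays, 1435 genes (18.0%) differed at an adjusted p under 0.05, of which 755 (9.49% of those tested) were higher in iNSC and 680 (8.55%) lower. By at least 2-fold 760 genes differed (9.56%), 354 higher (4.45%) and 406 lower (5.11%), and by at least 4-fold 87 were higher and 137 lower. The median difference over all genes was 0.02 on the log2 scale, and 89.3% of genes lay within 2-fold. Leaving out iNSC replicate 3 or NSC replicate 1 reduced the number called to 929 and 909. The calls of 791 genes, 380 higher and 411 lower, held in all 6 fits that left out 1 clone.

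**Figure D1:**
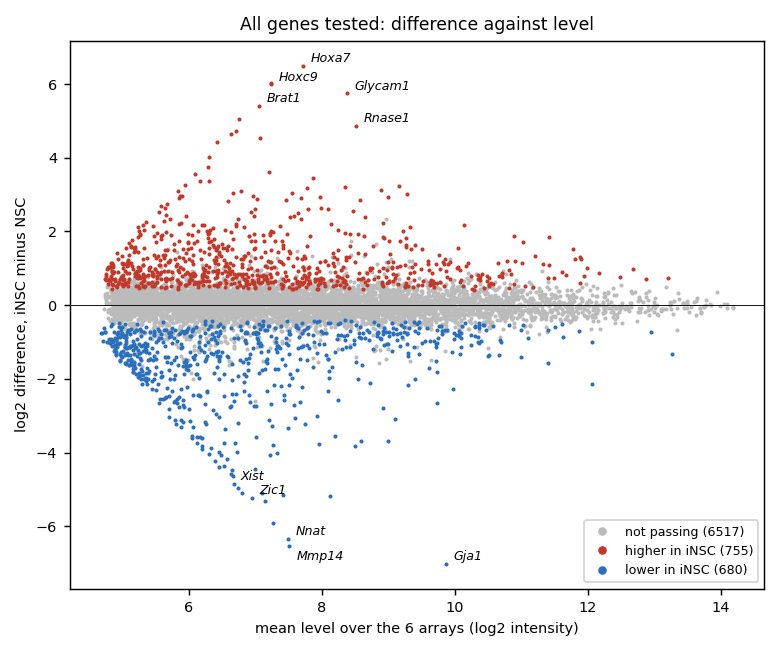
Log2 difference (iNSC minus NSC) of each of the 7952 genes tested against its mean log2 intensity over the 6 arrays. Red points are the 755 genes higher in iNSC, blue points the 680 lower and grey points the 6517 that did not pass.

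A fold is given below as a lower bound ("at least") where no array of a group detected the probe, with each such array set to the higher of its lowest detected level and the probe's own level. Such a gene passed the detection filter through the other group alone, and was thereby selected for a higher reading there. List counts that hold such genes are a description. Levels are normalized log2 intensities, and a difference is iNSC minus NSC, with its standard error (SE). The count called in a list is to be read beside the 18.0% called of all genes tested, 9.49% higher and 8.55% lower.

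**Figure D2:**
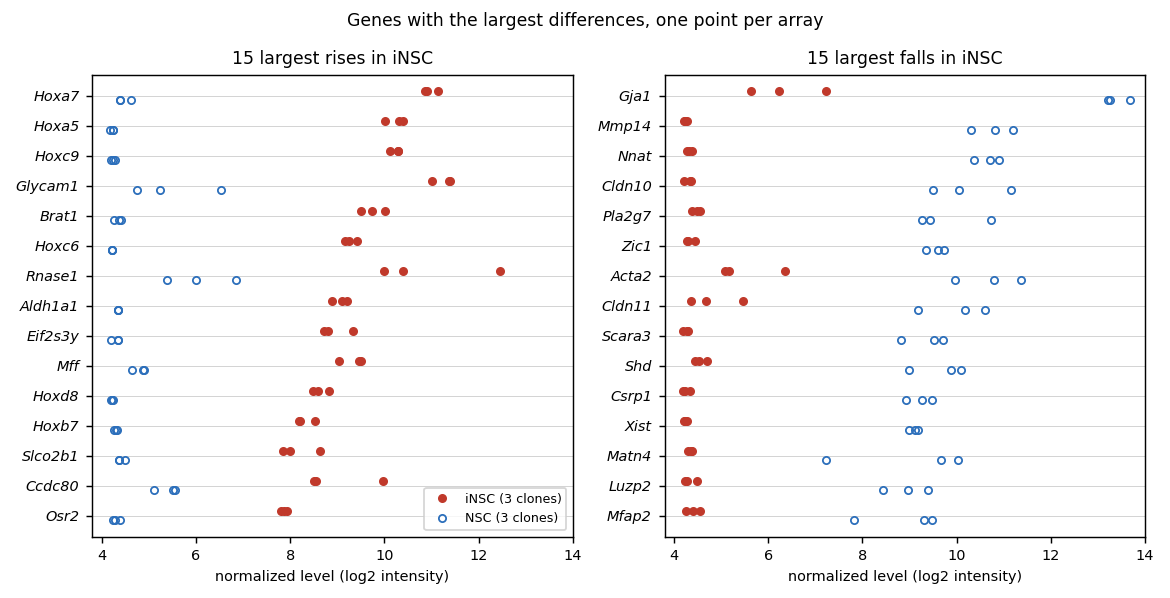
Normalized log2 intensity on each of the 6 arrays for the 15 genes with the largest rises (left) and the 15 with the largest falls (right) in iNSC, filled red points for iNSC and open blue points for NSC. In none of the 30 genes do the groups overlap, which the choice of genes requires; Gja1 lies at 5.63 to 7.22 in iNSC and at 13.22 to 13.68 in NSC.

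Hox genes, whose products assign position along the body axis, were detected in iNSC and mostly undetected in NSC: all 16 tested were detected on every iNSC array, and 13 on no NSC array. Of 10 tested genes of clusters A and B, 9 were higher in iNSC and none lower, with a median difference of 1.86. Of 6 tested genes of clusters C and D, 5 were higher and none lower, with a median of 3.84. The arrays carried 20 genes of clusters A and B and 18 of C and D, and those left out were below the detection filter. A gene that passed this filter on iNSC arrays alone was selected for a higher reading there, so these counts are a description. Hoxa7 read 10.87, 11.14 and 10.90 in iNSC, against 4.62, 4.40 and 4.39 in NSC, and was detected on no NSC array. This gave at least a 67.7-fold difference (adjusted p = 6.44e-07). Hoxc9 stood at 10.29, 10.28 and 10.13 in iNSC, against 4.19, 4.28 and 4.24 in NSC, at least 40.6-fold (adjusted p = 6.44e-07). The clones of each line lay close together in both genes, and the gap between lines was many times wider than the spread. Lower levels were reached by Hoxb4, at 6.39, 6.42 and 5.84 in iNSC and 4.46, 4.24 and 4.19 in NSC, which is at least 2.51-fold (adjusted p = 0.000468). Genes of cluster A ran from Hoxa2, a gene of hindbrain levels, at 6.94, 6.67 and 7.27 in iNSC and 4.26, 4.27 and 4.46 in NSC, to trunk genes such as Hoxa7.

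Among the genes tested, calls formed runs along the clusters, which were picked after the values were seen. Hoxa3, Hoxa4, Hoxa6 and Hoxb3 were on the array but failed the detection filter, so the runs pass over them. Among genes tested and ordered by position, Hoxb7, Hoxb6, Hoxb5, Hoxb4 and Hoxb2 followed each other on chromosome 11, all higher in iNSC, and Hoxd9, Hoxd8 and Hoxd4 did so on chromosome 2. On chromosome 6, Hoxa2, Hoxa5, Hoxa7 and Hoxa9 were joined by their neighbour Skap2, an adaptor of immune cell signalling. Skap2 read 11.495, 11.02 and 11.17 in iNSC, against 9.38, 8.47 and 9.31 in NSC, a difference of 2.175 ± 0.26 (adjusted p = 0.0014). Unlike the Hox genes beside it, Skap2 was detected on all NSC arrays.

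The promoters of Hoxa5 and Hoxa7 are shown because they had the highest iNSC levels among the tested genes of the cluster and none above detection in NSC. They follow each other among the genes tested, with the untested Hoxa6 passed over. Each run is the 150 bases before the annotated start, read 5′ to 3′ on the gene's strand from RefSeq (GRCm38.p6), with CpG dinucleotides in capitals. Hoxa5 lies at chr6:52204588-52204737 and Hoxa7 at chr6:52218574-52218723, both on the minus strand.
Hoxa5: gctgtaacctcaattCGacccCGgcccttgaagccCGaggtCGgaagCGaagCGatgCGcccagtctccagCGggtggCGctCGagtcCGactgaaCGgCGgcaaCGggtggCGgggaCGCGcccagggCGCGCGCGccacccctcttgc
Hoxa7: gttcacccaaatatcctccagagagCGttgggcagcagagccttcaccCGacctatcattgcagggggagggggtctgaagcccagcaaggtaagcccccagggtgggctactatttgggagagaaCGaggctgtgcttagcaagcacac
The 150 bases of Hoxa5 hold 21 CpG and those of Hoxa7 hold 3, although both genes showed the same pattern across the 6 arrays.

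Of 9 tested forebrain factors 5 were lower in iNSC and 1 higher, with a median difference of -1.26. Of the 5 lower ones 4 were detected on no iNSC array and passed the detection filter through NSC arrays alone. They were thus selected for a lower reading in iNSC, and the count is a description. Otx2, a head organizer of forebrain and midbrain, was undetected in iNSC at 4.27, 4.24 and 4.23, and read 8.24, 8.27 and 7.95 in NSC, at least 9.36-fold lower in iNSC (adjusted p = 2.65e-06). Sp8, a zinc-finger factor of the patterned forebrain, read 4.52, 4.75 and 4.51 in iNSC, against 6.52, 7.60 and 7.15 in NSC, at least 4.48-fold lower (adjusted p = 0.000691). Otx1 was detected in both, at 8.06, 7.30 and 7.33 in iNSC and 8.98, 8.88 and 8.62 in NSC, and fell by 1.26 ± 0.23 (adjusted p = 0.00809). Dlx1, a factor of ventral forebrain interneurons, read 4.57, 4.42 and 4.66 in iNSC, against 6.27, 8.80 and 6.85 in NSC (adjusted p = 0.0147), and missed the threshold without iNSC replicate 1 (adjusted p = 0.0509) or 2 (adjusted p = 0.0527). The spread of Dlx1 among NSC clones, with clone 2 highest, exceeded that of Otx2. Nr2f1, a nuclear receptor that sets area identity in the cortex, was the member that rose, by 1.10 ± 0.17 (adjusted p = 0.00463; chosen after its value was seen), with 11.68, 12.21 and 12.03 in iNSC and 10.74, 11.05 and 10.83 in NSC.

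Factors of the hindbrain and spinal cord split. Among 12 tested, 6 were higher in iNSC and 3 lower, with a median of 0.57. Irx5 and Irx3, homeobox factors used to partition the neural tube, were higher by 2.16 ± 0.16 and 1.81 ± 0.12 (adjusted p = 0.000129 and 7.1e-05). Irx3 read 7.62, 7.60 and 7.45 in iNSC and 5.72, 5.79 and 5.75 in NSC. Msx1, a dorsal neural tube and mesenchyme factor, read 7.80, 8.14 and 7.60 in iNSC, against 4.51, 4.61 and 4.32 in NSC, at least 7.77-fold higher (adjusted p = 1.93e-05). Zic1, a dorsal factor with roles in cerebellum and forebrain, was undetected in iNSC, at 4.27, 4.44 and 4.30, and read 9.35, 9.74 and 9.61 in NSC, at least 24.9-fold lower (adjusted p = 9.76e-07). The dorsal list members Msx1 and Zic1 thus lay at opposite ends, each with all 3 clones of a line on one side.

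General neural stem genes went both ways. Among 20 tested, 3 were higher in iNSC, 3 lower and 14 did not pass, a share called of 30% against 18.0% of all genes, with a median of 0.04 over members on both sides. Sox2, a factor that keeps progenitors undifferentiated, read 7.82, 8.48 and 8.40 in iNSC and 8.20, 8.34 and 8.15 in NSC. Slc1a3, the glial glutamate transporter, read 13.22, 13.76 and 13.50 in iNSC and 13.69, 13.80 and 13.77 in NSC. The groups overlapped in both genes, and the differences, 0.00 ± 0.19 and -0.26 ± 0.16, did not pass (adjusted p = 0.992 and 0.318). Nes, the stem cell filament, read 8.85, 8.86 and 9.21 in iNSC and 8.16, 7.46 and 9.23 in NSC (adjusted p = 0.297), and passed without NSC replicate 3, at 1.16 (adjusted p = 0.0196). Nr2e1, an orphan receptor that maintains adult neural stem cells, fell by 2.04 ± 0.24 (adjusted p = 0.00125), with 5.87, 5.47 and 5.50 in iNSC and 7.18, 8.09 and 7.71 in NSC. Nfix, a nuclear factor of stem cell quiescence and gliogenesis, rose by 1.11 ± 0.17 (adjusted p = 0.00363), with 11.83, 12.10 and 11.73 in iNSC and 10.66, 11.03 and 10.63 in NSC. Without iNSC replicate 3 or NSC replicate 1 the list kept 1 higher and 2 lower members.

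Factors commonly used to convert fibroblasts were not conspicuous. Of 5 listed, 4 had a probe and 3 were tested. Besides Sox2, Pou3f4 (Brn4), a POU factor, read 5.49, 5.01 and 5.45 in iNSC and 5.045, 5.61 and 5.68 in NSC (adjusted p = 0.736). Klf4, a zinc-finger factor, was higher in iNSC by 0.79 ± 0.20 (adjusted p = 0.0304), at 5.81, 5.37 and 5.54 in iNSC and 5.03, 4.44 and 4.90 in NSC. Klf4 missed the threshold without iNSC replicate 1, iNSC replicate 3 or NSC replicate 2 (adjusted p = 0.0994, 0.0929 and 0.0606). Whether a transgene is read by these probes was not tested.

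Astrocyte genes went both ways, with 9 of 25 higher in iNSC and 6 lower, and a median of 0.25. Agt, the angiotensin precursor of astrocytes in caudal brain regions, rose by 3.46 ± 0.44 (adjusted p = 0.00177), at 8.99, 10.30 and 9.47 in iNSC and 6.82, 6.25 and 5.32 in NSC. Aldh1l1, the folate enzyme widely used as an astrocyte marker, read 5.47, 4.78 and 5.85 in iNSC, against 9.51, 8.80 and 9.15 in NSC, a difference of -3.79 ± 0.29 (adjusted p = 0.000163). Mt3, the brain metallothionein, fell by 2.28 ± 0.30 (adjusted p = 0.00197) and Sox9, a glial fate factor, fell by 1.47 ± 0.20 (adjusted p = 0.00223). Sox9 read 6.98, 7.62 and 7.45 in iNSC and 9.04, 8.69 and 8.73 in NSC. Astrocyte marker genes of one list thus lay on opposite sides in the same clones. Of the 4 defining astrocyte markers, Aldh1l1 was lower in iNSC and Gfap, Aqp4 and S100b were higher. Aqp4 rose by 0.88 (adjusted p = 0.0122) and S100b by 1.07 (adjusted p = 0.01575). Without NSC replicate 1 neither passed (adjusted p = 0.0538 and 0.0629), nor did S100b without iNSC replicate 3 (adjusted p = 0.0618). The 4 markers summed to 2443 to 3195 intensity units on iNSC arrays and 1958 to 2091 on NSC arrays. Gfap, the astrocyte filament, read 8.47, 8.40 and 8.12 in iNSC and 7.95, 7.18 and 6.75 in NSC (adjusted p = 0.0471), and without any 1 clone other than NSC replicate 1 its adjusted p was 0.088 to 0.136. Without iNSC replicate 3 the list had 4 higher and 4 lower members, and without NSC replicate 1, 5 and 4.

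Genes of oligodendrocyte precursors were lower in iNSC in 8 of 14 tested and higher in 2, with a median of -1.68. Pdgfra, the receptor that marks these precursors and drives their division, read 6.88, 7.93 and 7.78 in iNSC, against 11.02, 10.45 and 9.47 in NSC, and fell by 2.78 ± 0.42 (adjusted p = 0.00384). Gpr17, a receptor of cells about to differentiate, read 6.67, 6.66 and 8.13 in iNSC, against 11.48, 11.56 and 9.49 in NSC, and fell by 3.69 ± 0.62 (adjusted p = 0.0061). Matn4, a matrilin of the precursor's matrix, was undetected in iNSC at 4.35, 4.30 and 4.37, and read 10.03, 9.66 and 7.22 in NSC, at least 16.5-fold lower in iNSC (adjusted p = 0.0028). NSC clone 3 was the lowest NSC clone in all 3 of these genes, yet lay above every iNSC clone. Olig2, an oligodendrocyte lineage factor, rose by 0.53 ± 0.12 (adjusted p = 0.0228), but not past the threshold without iNSC replicate 1, iNSC replicate 3 or NSC replicate 1 (adjusted p = 0.0567, 0.102 and 0.087).

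Myelin genes, too, had their lowest NSC mean in clone 3. Averaged over the 8 tested, they stood at 6.75, 6.55 and 6.85 on iNSC arrays and 8.52, 8.24 and 7.42 on NSC arrays. Of the 8, 5 were lower in iNSC and 1 higher, with a median of -1.05. Cldn11, the claudin of myelin tight junctions, read 4.68, 4.37 and 5.47 in iNSC, against 10.61, 10.17 and 9.19 in NSC, and fell by 5.15 ± 0.40 (adjusted p = 0.000169). Mbp, a structural protein of compact myelin, read 4.37, 4.29 and 4.32 in iNSC, against 9.58, 8.61 and 5.56 in NSC, and was detected on all 3 NSC arrays and no iNSC array. Its adjusted p was 0.0301, and 0.0724 to 0.0921 without iNSC replicate 1, 2 or 3 or NSC replicate 1 or 2. Cryab, a small heat shock protein carried by the list as an oligodendrocyte gene, was the member that rose, by 2.92 ± 0.34 (adjusted p = 0.00119). Leaving out iNSC replicate 1, 2 or 3 or NSC replicate 1 left 1 higher and 1 or 2 lower members. The oligodendrocyte markers on the array, Mbp, Mag and Mog, summed to 59.03 to 60.75 intensity units on iNSC arrays and to 93.68 to 1029 on NSC arrays, with Mog undetected on all 6. No iNSC array detected any of these markers, so the iNSC sum is background signal. Fewer cells of a type and less RNA per cell cannot be told apart in such cultures, and the part of differentiating cells in these results was not tested.

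Genes of young neurons were lower in iNSC in 7 of 22 tested and higher in 1, with a median of -0.57. Dcx, the doublecortin of migrating neuroblasts, read 5.14, 6.19 and 6.82 in iNSC, against 9.39, 9.87 and 8.12 in NSC, and fell by 3.08 ± 0.54 (adjusted p = 0.00697). Gap43, a growth cone protein, fell by 3.04 ± 0.16 (adjusted p = 1.97e-05) and Stmn3, a tubulin regulator, fell by 2.33 ± 0.37 (adjusted p = 0.00463). Gap43 read 5.12, 4.97 and 4.69 in iNSC and 7.82, 8.09 and 7.99 in NSC. Map2, a dendritic microtubule protein, was high in both, at 11.69, 12.00 and 11.57 in iNSC and 11.38, 11.56 and 11.18 in NSC (adjusted p = 0.17), and passed when the mean of its probes was used (adjusted p = 0.0383). The 4 defining neuron markers summed to 3215 to 4215 intensity units on iNSC arrays and 2638 to 4005 on NSC arrays, a sum carried by Map2. Stmn2 was detected on no iNSC array and 1 NSC array, and Tubb3 on 2 iNSC arrays and no NSC array.

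**Figure D3:**
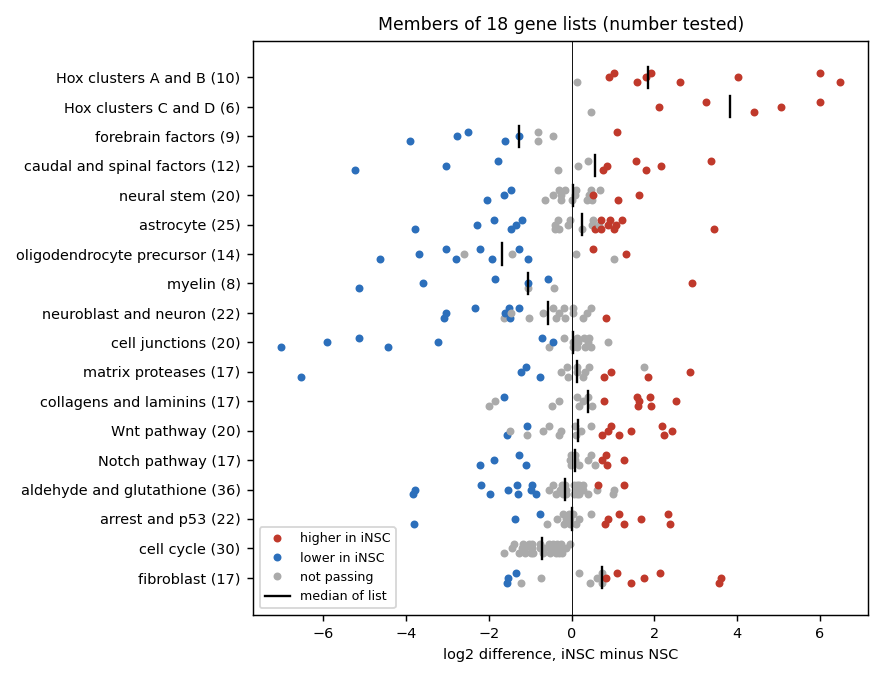
Log2 difference (iNSC minus NSC) of each tested member of 18 gene lists, 1 point per gene, red for genes higher in iNSC, blue for lower and grey for not passing, with the list's median as a black bar. The Hox rows lie right of 0, the oligodendrocyte precursor row mostly left of it (median -1.68), and all 30 cell cycle genes lie left of 0 without passing.

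Of 17 tested EGF, FGF and PDGF genes 2 were higher and 2 lower, a share of 23.5% near the 18.0% of all genes, with Pdgfra above among the lower. Fgfr3, a receptor for fibroblast growth factors on neural progenitors, rose by 1.215 ± 0.13 (adjusted p = 0.00093), at 7.02, 6.98 and 6.94 in iNSC and 5.70, 5.63 and 5.96 in NSC. Hbegf, a ligand of the EGF receptor, rose by 1.49 ± 0.19 (adjusted p = 0.00175), at 7.35, 7.10 and 6.998 in iNSC and 5.80, 5.88 and 5.30 in NSC. The receptor itself, Egfr, read 10.37, 10.33 and 10.38 in iNSC and 9.88, 9.60 and 10.18 in NSC. Its difference of 0.47 ± 0.17 did not pass (adjusted p = 0.0979), and passed without NSC replicate 3 (adjusted p = 0.0282).

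Notch genes, which hold progenitors undifferentiated, changed in 8 of 17 tested, 4 each way (47.1%, against 18.0% of all genes). The lower ones included Mfng, a sugar transferase that tunes Notch receptors, at 6.23, 6.84 and 6.70 in iNSC and 8.75, 8.48 and 9.19 in NSC, a difference of -2.22 ± 0.23 (adjusted p = 0.000668). Dtx1, a regulator of Notch trafficking, fell by 1.88 ± 0.17 (adjusted p = 0.000319) and the divergent ligand Dll3 fell by 1.26 ± 0.25 (adjusted p = 0.0122). Hey2, a transcriptional repressor that Notch induces, rose by 1.27 ± 0.18 (adjusted p = 0.00286), at 5.88, 6.44 and 6.44 in iNSC and 5.07, 4.96 and 4.93 in NSC. The Hes genes held by the neural stem list split, with Hes1 called higher at 1.63 and Hes5 called lower at -1.63. Hes1 missed the threshold without iNSC replicate 1, 2 or 3 or NSC replicate 1 or 2 (adjusted p = 0.0539 to 0.138). Hes5 missed it without iNSC replicate 3 or NSC replicate 1 (adjusted p = 0.0527 and 0.0777). Within the TGF-beta and BMP list 3 of 17 were higher and 1 lower, or 7 and 1 with the clone number as a block. Without the block this was a share called of 23.5%, near the 18.0% of all genes. Tgfbr2, the signalling receptor for TGF-beta, was the largest, at 8.69, 8.16 and 7.73 in iNSC and 5.82, 5.28 and 6.18 in NSC, a rise of 2.43 ± 0.30 (adjusted p = 0.00155).

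Wnt genes were higher in iNSC in 8 of 20 tested and lower in 2 (50% called, against 18.0% of all genes), with a median of 0.16. Lgr5, a receptor for R-spondins and a stem cell marker in several tissues, read 7.53, 6.67 and 7.32 in iNSC, against 4.83, 4.97 and 4.43 in NSC, a rise of 2.43 ± 0.25 (adjusted p = 0.000603). Ror2, a Wnt5a receptor, was detected on all iNSC arrays and no NSC array, at least 4.31-fold higher (adjusted p = 0.000325). Wif1, a secreted Wnt antagonist, behaved alike at 7.42, 6.77 and 6.63 in iNSC and 4.74, 4.62 and 4.88 in NSC, at least 4.15-fold higher (adjusted p = 0.000506). Sfrp2, another secreted antagonist, was the reverse, at 4.30, 4.33 and 4.38 in iNSC and 5.38, 6.07 and 6.27 in NSC, at least 1.98-fold lower (adjusted p = 0.00308). Secreted antagonists thus stood on both sides. Aldh1a1, which makes retinoic acid, read 9.21, 9.10 and 8.89 in iNSC, against 4.34, 4.35 and 4.34 in NSC, at least 18.1-fold higher (adjusted p = 9.76e-07).

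Of 20 tested cell junction genes, 7 were lower in iNSC and none higher, although the median was 0.04. Cldn10, Pcdh17 and Gjd2 passed the detection filter through NSC arrays alone and were thus selected for a lower reading in iNSC. The count is therefore a description. Gja1, connexin 43 of astroglial gap junctions, read 5.63, 7.22 and 6.24 in iNSC, against 13.25, 13.68 and 13.22 in NSC, a difference of -7.02 ± 0.37 (adjusted p = 2.2e-05). Its NSC level was close to the top of the measured range, while iNSC arrays still detected it. Cldn10, a claudin, was undetected in iNSC at 4.34, 4.21 and 4.36, and read 10.04, 11.15 and 9.49 in NSC, at least 39.5-fold lower (adjusted p = 5.78e-05). Pcdh17, an adhesion protocadherin outside the gene clusters, was at least 19.4-fold lower (adjusted p = 2.34e-06), and Gjd2, connexin 36 of electrical synapses, at least 7.69-fold (adjusted p = 0.000414). The other 13 members did not pass.

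Matrix enzymes went both ways. Mmp14, the membrane metalloproteinase that activates secreted ones, was undetected in iNSC at 4.24, 4.27 and 4.22, and read 10.82, 11.19 and 10.31 in NSC, at least 57.6-fold lower (adjusted p = 2.34e-06). Mmp17, another membrane-bound family member, fell by 1.095 ± 0.23 (adjusted p = 0.0147). Timp3, a matrix-bound inhibitor, read 12.57, 12.20 and 12.25 in iNSC, against 10.82, 10.32 and 10.37 in NSC, and rose by 1.84 ± 0.18 (adjusted p = 0.0005). Adamts4, an aggrecanase and thus a protease, rose as well, by 2.86 ± 0.34 (adjusted p = 0.00134), at 9.52, 8.29 and 8.86 in iNSC and 6.37, 5.50 and 6.22 in NSC. The list counted 4 higher and 4 lower of 17, or 3 and 2 without iNSC replicate 1 or 3, 2 and 3 without iNSC replicate 2, and 2 and 2 without NSC replicate 1.

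Structural matrix genes leaned upward, with 7 of 17 collagen, laminin and related genes higher in iNSC and 1 lower (median 0.41), or 4 and 1 without iNSC replicate 1 or 3. The largest difference in this list was Col6a1 at 2.52. It missed the threshold without iNSC replicate 1 or 3 (adjusted p = 0.116 each) or NSC replicate 2 or 3 (adjusted p = 0.0523 and 0.0621). Lama1, a laminin chain of basement membranes, read 6.72, 7.47 and 7.54 in iNSC, against 5.21, 5.25 and 5.49 in NSC, a rise of 1.92 ± 0.23 (adjusted p = 0.0014). Eln, elastin, rose by 1.90 ± 0.24 (adjusted p = 0.00162), while Nid1, a linker of laminin to collagen, was undetected in iNSC and at least 2.05-fold lower (adjusted p = 0.000534). Of 6 integrins tested, 3 were higher and 1 lower: Itga9 was at least 2.75-fold higher (adjusted p = 0.000412), the laminin receptor subunit Itga6 rose by 1.55 ± 0.15 (adjusted p = 0.000506), and Itga7 fell by 1.17 ± 0.20 (adjusted p = 0.00612). Among 10 contractile genes, Acta2, smooth muscle actin, read 6.35, 5.08 and 5.18 in iNSC, against 10.79, 9.97 and 11.37 in NSC, and fell by 5.17 ± 0.44 (adjusted p = 0.000252). Csrp1, a LIM protein on actin bundles, was at least 19.6-fold lower (adjusted p = 2.34e-06), whereas the actin linkers Actn1 and Vcl rose by 1.83 ± 0.19 and 1.25 ± 0.15 (adjusted p = 0.00066 and 0.00118). Sdc3, a neural syndecan, and Sparc, a matricellular protein, rose by 1.71 ± 0.29 and 1.25 ± 0.18 (adjusted p = 0.00628 and 0.00293). Their list of proteoglycans had 4 higher and 4 lower of 19, or 2 and 3 without iNSC replicate 3 and 3 and 2 without NSC replicate 1. Its largest differences each way were Bgn at 2.42 and Has2 at -1.31. Bgn missed the threshold without iNSC replicate 1, 2 or 3 (adjusted p = 0.0545 to 0.11). Has2 missed it without iNSC replicate 1 or 3 or NSC replicate 1 (adjusted p = 0.0686 to 0.084).

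Detoxifying enzymes were more often lower than higher. Among 36 tested genes of aldehyde and glutathione metabolism, 10 were lower in iNSC and 2 higher, with a median of -0.15. The share called was 33.3%, against 18.0% of all genes. Gstk1, a glutathione transferase, read 6.69, 6.08 and 6.07 in iNSC, against 8.67, 8.53 and 8.22 in NSC, and fell by 2.19 ± 0.21 (adjusted p = 0.000427). Gstt1, of the theta class, fell by 1.53 ± 0.20 (adjusted p = 0.00189), and the peroxidase Gpx7 was undetected in iNSC and at least 2.44-fold lower (adjusted p = 0.000389). Cyp7b1, an oxysterol hydroxylase, read 4.24, 4.24 and 4.35 in iNSC and 8.055, 8.65 and 7.62 in NSC, at least 9.06-fold lower (adjusted p = 6.44e-05).

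Of 25 tested lipid genes 6 were lower and 3 higher, a share called of 36% against 18.0% of all genes. Pla2g7, which hydrolyses platelet-activating factor, was undetected in iNSC at 4.38, 4.55 and 4.49, and read 9.26, 10.73 and 9.44 in NSC, at least 29.5-fold lower (adjusted p = 7.78e-05). Mgll, the lipase that degrades the endocannabinoid 2-AG, fell by 3.10 ± 0.155 (adjusted p = 1.77e-05), at 7.26, 7.69 and 7.70 in iNSC and 10.71, 10.59 and 10.65 in NSC. Apoc1, an apolipoprotein, rose by 3.05 ± 0.32 (adjusted p = 0.000697), at 8.51, 9.57 and 9.13 in iNSC and 5.69, 6.57 and 5.81 in NSC.

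Inhibitors of the cell cycle included large changes in both directions. Cdkn2a, which encodes p16 and p19ARF, read 10.24, 9.65 and 9.63 in iNSC, against 7.52, 6.85 and 7.99 in NSC, a rise of 2.39 ± 0.30 (adjusted p = 0.00177). Its neighbour Cdkn2b, encoding p15, read 8.93, 9.08 and 8.52 in iNSC, against 6.44, 6.50 and 6.60 in NSC, a rise of 2.33 ± 0.17 (adjusted p = 0.000117). The imprinted inhibitor Cdkn1c, encoding p57, read 7.22, 5.76 and 6.79 in iNSC, against 11.17, 10.64 and 9.40 in NSC, and fell by 3.82 ± 0.51 (adjusted p = 0.00221). Fas, a death receptor, rose by 1.675 ± 0.26 (adjusted p = 0.00439). In all, 7 of 22 genes of arrest and p53 response were higher and 3 lower.

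Genes of division itself did not pass in any of 30 tested, with 3 of them under an unadjusted p of 0.05 by limma, though all 30 differences were below 0 (median -0.72). The iNSC and NSC values failed to overlap in 2 of the 30, against 36.9% of all genes tested (20.1% with iNSC higher). Averaged over the 30 genes, levels were 7.42, 6.03 and 7.52 on iNSC arrays 1 to 3, against 7.73, 6.70 and 8.78 on NSC arrays 1 to 3. Clone 2 was the lowest of each line and NSC clone 3 the highest of all. Cdk1, the mitotic kinase, read 7.47, 5.37 and 7.82 in iNSC and 8.13, 6.05 and 9.59 in NSC (adjusted p = 0.509), a gene chosen after its values were seen. With the clone number as a block, 12 of the 30 passed, all lower in iNSC. Without iNSC replicate 1 or NSC replicate 2, 1 gene passed, lower in iNSC.

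**Figure D4:**
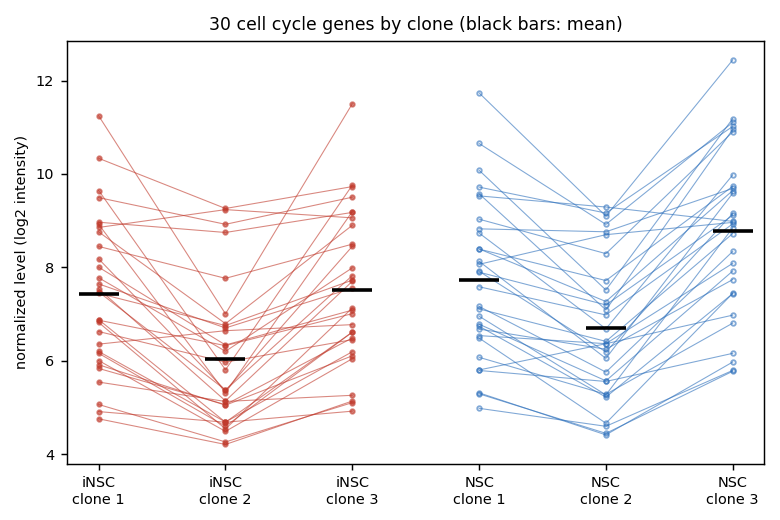
Normalized log2 intensity of 30 cell cycle genes in the 3 iNSC clones (red, left) and the 3 NSC clones (blue, right), with lines joining the values of a gene within a group and black bars at the mean of the 30. The means fall at clone 2 in both groups, 6.03 in iNSC and 6.70 in NSC, and the clones within a group differ by more than the groups do.

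Histone genes of the replication-dependent clusters were higher in iNSC in a part of the set. This set, and the protocadherins that follow, were chosen after their values were seen. Histone cluster genes are transcribed in S phase and their main messages lack a poly(A) tail, whereas the labels name a kit without saying how it primed the RNA. Of 35 tested, 20 were higher and none lower, with a median of 1.03 against 0.02 for all genes. With the clone number as a block 21 were higher and 2 lower, namely H2ac10 at -0.59 (adjusted p = 0.0327) and H2ac22 at -0.53 (adjusted p = 0.0468), and H3c1 passed as higher (adjusted p = 0.0374). By class, 8 of 10 H2B genes, 6 of 7 H4 genes, 3 of 12 H2A genes and 2 of 5 H3 genes were higher. H2bc4 read 12.14, 11.60 and 11.78 in iNSC, against 10.10, 9.24 and 10.52 in NSC, a rise of 1.89 ± 0.32 (adjusted p = 0.00616). H4c8 read 7.365, 7.35 and 7.24 in iNSC, against 5.63, 5.59 and 5.78 in NSC, a rise of 1.65 ± 0.12 (adjusted p = 0.000137), and the linker histone H1f2 rose by 1.53 ± 0.27 (adjusted p = 0.00711). Averaged over the 35 genes, iNSC arrays stood at 8.64, 8.40 and 8.70 and NSC arrays at 7.68, 7.56 and 8.24, so the groups did not overlap. Without the block, the 9 H2A genes that did not pass had differences of -0.59 to -0.16, and near-identical genes of a class may share signal between probes. Fewer passed without iNSC replicate 1, iNSC replicate 3 or NSC replicate 1 (12 each) or without NSC replicate 2 (13), each with none lower.

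Promoters of H2B genes are shown because their class held the most calls, and because genes with the octamer differed widely in size of difference. The windows cover the 150 bases before the annotated start, 5′ to 3′ on the gene's strand (RefSeq, GRCm38.p6), with CCAAT, the octamer ATTTGCAT and TATAAA in capitals on either strand. H2bc14 lies at chr13:21721894-21722043 and H2bc12 at chr13:22035671-22035820, both higher in iNSC. H2bc8 lies at chr13:23571250-23571399 and H2bc18 at chr3:96269550-96269699, neither passing. All 4 are on the plus strand.
H2bc14: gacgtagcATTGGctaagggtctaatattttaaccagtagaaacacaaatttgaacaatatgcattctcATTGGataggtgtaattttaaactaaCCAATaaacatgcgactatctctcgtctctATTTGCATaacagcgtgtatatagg
H2bc12: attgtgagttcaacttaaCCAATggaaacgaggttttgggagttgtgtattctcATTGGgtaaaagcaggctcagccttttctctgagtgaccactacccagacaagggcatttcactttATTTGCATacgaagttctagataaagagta
H2bc8: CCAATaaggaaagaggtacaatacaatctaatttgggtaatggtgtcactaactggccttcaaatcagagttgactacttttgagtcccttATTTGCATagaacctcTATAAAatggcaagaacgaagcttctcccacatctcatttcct
H2bc18: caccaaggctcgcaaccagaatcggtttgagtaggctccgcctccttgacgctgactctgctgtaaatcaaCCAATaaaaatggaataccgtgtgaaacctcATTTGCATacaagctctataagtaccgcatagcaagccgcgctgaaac
The octamer, a known element of H2B promoters, was present in 300-base windows (250 bases before to 50 after the start) of 4 of 9 tested H2B genes with a sequence, against 1.40% of the 6558 tested genes with one. CCAAT was present in all 9, against 39.8%, and TATAAA in 4, against 6.72%. Of these, H2bc14 and H2bc12 differed by 1.87 ± 0.21 and 1.93 ± 0.27 (adjusted p = 0.00111 and 0.00283), while H2bc8 and H2bc18 differed by 0.46 ± 0.14 and 0.08 ± 0.17 (adjusted p = 0.0611 and 0.794). H2bc8 passed without NSC replicate 3 (adjusted p = 0.0455), in a fit of all 7 groups (adjusted p = 0.0189), with the 6 arrays normalized alone (adjusted p = 0.0483) and in the deposited values, where it differed by 0.98 (adjusted p = 0.036). Its side of the threshold thus depends on the setting.

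Clustered protocadherins, cell surface proteins that give neurons an individual identity, rose in part. Of 16 tested, 14 of them of the beta cluster, 5 were higher and none lower, with a median of 0.29. These 5, Pcdhb9, Pcdhb10, Pcdhb11, Pcdhb14 and Pcdhb16, followed each other among the tested genes of chromosome 18. Pcdhb10 read 7.13, 7.47 and 7.57 in iNSC, against 5.93, 6.01 and 5.42 in NSC, a rise of 1.60 ± 0.20 (adjusted p = 0.00163). Pcdhb16 read 6.67, 6.75 and 7.02 in iNSC, against 5.25, 5.36 and 5.17 in NSC, a rise of 1.55 ± 0.14 (adjusted p = 0.000349). Pcdhb22, at the end of the cluster, read 7.57, 7.50 and 7.44 in iNSC and 7.52, 7.68 and 7.48 in NSC (adjusted p = 0.8).

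**Figure D5:**
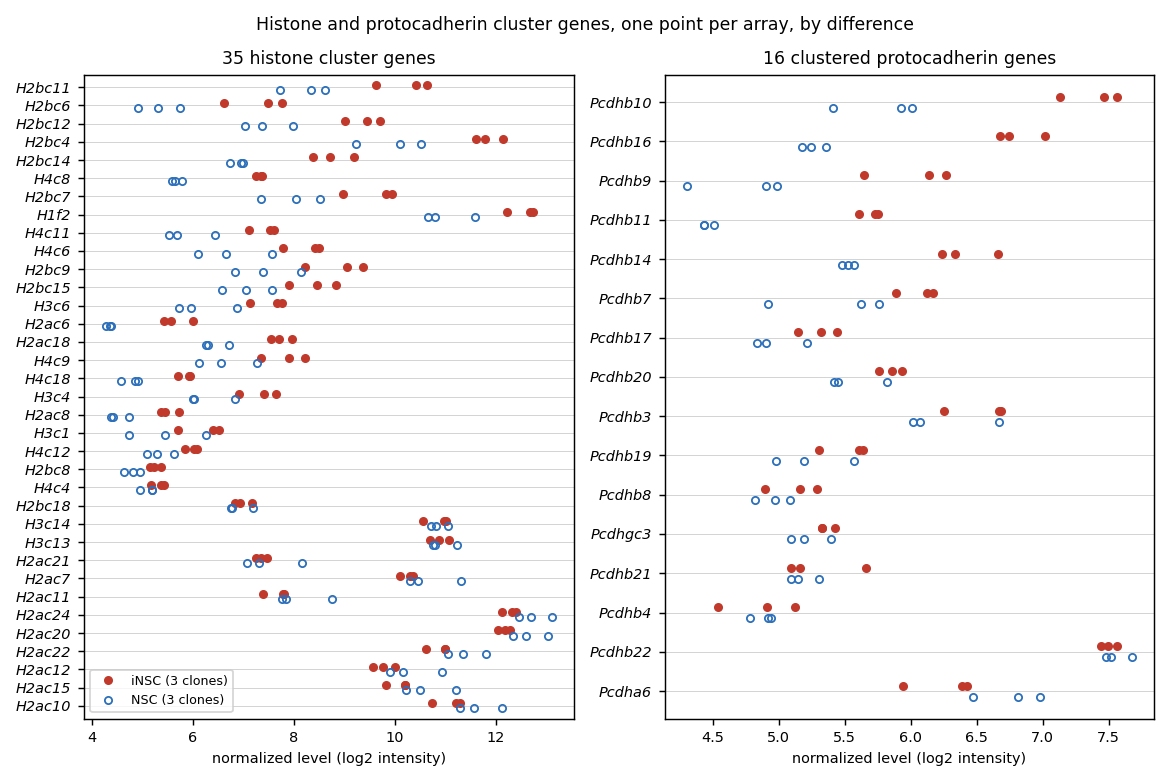
Normalized log2 intensity on each array for 35 histone cluster genes (left) and 16 clustered protocadherin genes (right), ordered from the most positive difference, filled red points for iNSC and open blue points for NSC. H2B and H4 genes make up most of the upper left rows, with iNSC to the right of NSC, and 9 of the 12 H2A genes lie in the lower rows with the groups close together.

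Sex-linked transcripts separated the lines without overlap. Xist, the RNA of the inactive X, was undetected in iNSC at 4.22, 4.27 and 4.24, and read 9.12, 9.18 and 8.99 in NSC, at least 18.0-fold lower (adjusted p = 6.99e-07). Eif2s3y, a Y-linked translation factor, read 8.71, 9.34 and 8.81 in iNSC, against 4.35, 4.35 and 4.19 in NSC, at least 16.7-fold higher (adjusted p = 5.07e-06). The Y-linked Kdm5d and Uty were also detected on iNSC arrays alone, at least 4.11-fold and 1.37-fold higher (adjusted p = 5.22e-05 and 0.00879). Sex and line therefore cannot be told apart in these 6 arrays. Other X-linked genes gave calls in 19.5% of 266 tested, with a median of 0.05, against 17.9% of 7679 autosomal genes.

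Imprinted genes were led by Nnat, neuronatin, a paternally expressed gene of brain, undetected in iNSC at 4.31, 4.28 and 4.38, and at 10.89, 10.71 and 10.37 in NSC, at least 53.2-fold lower (adjusted p = 6.99e-07). Ndn, necdin, fell by 0.88 ± 0.16 (adjusted p = 0.00869), at 10.91, 10.53 and 10.54 in iNSC and 11.74, 11.45 and 11.44 in NSC. Of 17 tested, 4 were lower and 1 higher, or 3 and none without iNSC replicate 2 or 3 or NSC replicate 1 or 2. With all clones the share called was 29.4%, against 18.0% of all genes. Among channels, Kcnk2, a two-pore potassium channel, fell by 3.78 ± 0.37 (adjusted p = 0.0005), and the AMPA receptor subunit Gria2 fell by 2.62 ± 0.33 (adjusted p = 0.00162). Cacna2d1, a calcium channel subunit, rose by 1.79 ± 0.28 (adjusted p = 0.00461), and the list had 4 higher and 3 lower of 17 (41.2% called). Ifi27 and Ifitm2, both interferon-inducible, rose by 3.02 ± 0.20 and 2.57 ± 0.36 (adjusted p = 6.89e-05 and 0.00269) in a list with 3 higher and 2 lower of 19 (26.3% called). Il33, a nuclear cytokine of glia, rose by 1.90 ± 0.32 (adjusted p = 0.00634), at 8.86, 7.67 and 7.998 in iNSC and 6.62, 6.32 and 5.88 in NSC, while the neuropeptide Npy was at least 1.99-fold lower (adjusted p = 0.0079).

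Among other lists, of 22 hypoxia and glycolysis genes 1 was higher and none lower, and of 32 chromatin genes 2 were higher and 2 lower. Among 19 cholesterol synthesis genes none was higher and 3 were lower, a share called of 15.8%, near the 18.0% of all genes tested.

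Genes with large rises outside these lists included Glycam1, a mucin that binds L-selectin, at 11.39, 11.004 and 11.38 in iNSC and 5.23, 4.76 and 6.54 in NSC, a rise of 5.75 ± 0.42 (adjusted p = 0.000117). Rnase1, a secreted ribonuclease, read 9.99, 12.45 and 10.40 in iNSC, against 5.996, 6.86 and 5.38 in NSC, a rise of 4.87 ± 0.65 (adjusted p = 0.00216), with clone 2 highest in both lines. Slco2b1, an organic anion transporter, was at least 9.62-fold higher (adjusted p = 3.41e-05). Large falls included Shd, a signalling adaptor, at least 26.4-fold lower (adjusted p = 2.54e-05), and Scara3, a scavenger receptor, at 4.30, 4.19 and 4.27 in iNSC and 9.71, 9.52 and 8.81 in NSC, at least 21.5-fold lower (adjusted p = 1.005e-05). Scara3 was one of 4 tested neighbours on chromosome 14 that were all lower, with Ccdc25, Clu and Ephx2, a run picked after the values were seen.

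Fibroblast genes rose in 7 of 17 tested and fell in 3, with a median of 0.73, but none of the defining fibroblast markers stood out in iNSC. Col1a1, Col1a2, Dcn, Lum and Pdgfrb were undetected on all 6 arrays, and Col3a1 was detected on 1 iNSC array only. The 7 markers summed to 140.5 to 160.1 intensity units on iNSC arrays and 169.1 to 182 on NSC arrays. NSC arrays detected only Thy1 among them, and iNSC arrays only Col3a1 on that 1 array, so the sums are mostly background signal. Thy1, which neurons express too, was undetected in iNSC and at least 1.82-fold lower (adjusted p = 0.000534). Other members that fell were Cav1 at -1.56 and Prrx1 at -1.54, and Cav1 missed the threshold without iNSC replicate 3 (adjusted p = 0.066). Members that rose included Ccdc80, a secreted matrix protein, at 8.51, 9.98 and 8.54 in iNSC and 5.55, 5.51 and 5.12 in NSC (3.62 ± 0.38, adjusted p = 0.000744). Osr2, a factor of embryonic mesenchyme, rose as well, at 7.87, 7.80 and 7.92 in iNSC and 4.25, 4.38 and 4.29 in NSC (at least 7.86-fold, adjusted p = 2.34e-06). Anxa1, a calcium-dependent membrane protein, was at least 3.11-fold higher (adjusted p = 0.00122). Markers of microglia and of endothelium on the array, 3 each, were undetected on all 6 arrays. Of the pluripotency markers, Pou5f1 was undetected on all 6 arrays, and Nanog was detected on 1 array of each line. Zfp42 was detected on 1 iNSC array and no NSC array. Dppa5a was detected on 2 iNSC and 3 NSC arrays, at low levels, and its difference of -0.23 did not pass (adjusted p = 0.409).

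Detection itself differed for 137 genes found on all 3 iNSC arrays and no NSC array (1.72% of those tested) and for 216 found on all 3 NSC arrays and no iNSC array (2.72%). The bound of the fold reached 4 in 23 of the 137 and in 52 of the 216. On the MEF array, which the choice did not use, 90 of the 137 (65.7%) and 149 of the 216 (69%) were detected, against 93.1% of all genes tested. The MEF array read all 7 defining fibroblast markers, from Pdgfrb at 7.15 to Dcn at 13.73, which goes with its label. It also read some neural markers, such as Aqp4 at 10.48 and Gfap at 7.81, which goes in part against its label. Others, such as S100b at 4.39 and Tubb3 at 4.25, lay below its lowest detected level of 4.596. All 3 arrays of embryonic stem cell progenitors detected 65 of the 137 (47.4%) and 135 of the 216 (62.5%), against 87% of all genes tested.

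Some of these differences belonged to 1 probe of a gene. Of 2050 genes with at least 2 tested probes, 102 were higher and 84 lower by every probe, 1633 by none, and 229 by some only. Another 2 were called higher by one probe and lower by another. In 8 genes a probe differed at least 4-fold beside another that did not differ, a set chosen after the values were seen. Mff, a mitochondrial fission factor named among the large rises, averaged 9.33 in iNSC and 4.81 in NSC by its brightest probe, at least 21.8-fold (adjusted p = 3.66e-06). A second Mff probe averaged 6.57 in iNSC and 6.97 in NSC and did not pass (adjusted p = 0.11), so the gene has no single direction. Stx8, a membrane-fusion protein, averaged 4.59 in iNSC and 7.20 in NSC by one probe, but 8.40 and 8.37 by another. Brat1, a partner of the DNA damage kinase ATM, read 10.02, 9.51 and 9.74 in iNSC, against 4.26, 4.37 and 4.41 in NSC, at least 29.2-fold higher (adjusted p = 1.27e-06), but its second probe was undetected on all 6 arrays. Hoxa7, Gja1 and Csrp1 were each read by 1 probe.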

How the data were processed

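RNA of 13 mouse samples was read on Illumina bead arrays with 25697 probes. The authors deposited a signal intensity per probe, not normalized between arrays, with a detection p-value, and a table of values on a log2 scale whose centring is not stated. The submitters' processing notes name BeadStudio 3.2, RMA and lumi without role or order. Intensities of all 13 arrays were background-corrected with normexp on the detection p-values (offset 16), quantile-normalized and log2-transformed (limma 3.58.1, statmod 1.5.0, R 4.3.3). A probe was named where the platform annotation gave 1 symbol (23978 probes; 1719 had none), and symbols were updated through RefSeq, with 16 probes unmatched. Probes with a detection p under 0.01 on at least 3 of the 6 arrays were kept (10699), and the brightest stood for its gene. limma's lmFit and eBayes were fitted without a block on the 6 arrays, two-sided, with Benjamini-Hochberg adjustment over all genes at 0.05. The number of arrays limits the precision.

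Genes were named by rule: the 15 largest rises and falls without overlap, up to 5 called members per list, up to 10 genes each way by bound among those detected in one group alone, the defining markers, the conversion factors and the sex-linked genes. Predicted and Riken genes were passed over. Not every gene that met the rule is described above. Those left out include genes that lost their call under an alternative, such as Dlx2, Nkx2-2, Car2 and Cnp. Members and lists were chosen with earlier results of these data known. In simulated data on the 7952 genes for this comparison, 61% of changes of 1 and 95% of changes of 2 on the log2 scale were recovered, with 10 false calls. The simulation changed 100 genes at each size and drew noise for each gene independently. It held no deviations shared across genes, so these rates may not hold for the real arrays. Deviations of clones with the same number correlated at 0.229, 0.54 and 0.304 (other pairs -0.434 to 0.263). The labels do not say what the number shares. The main fit ignored the number, so its p-values leave out any pairing. A block on the number was an alternative, and called 1669 genes against 1435. The alternatives varied the correction, normalization, filter, probe choice, prior, block and clones.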

Additional observations from a re-analysis of the deposited data

How the results depend on the processing

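The number of genes called was 1435, and 893 when only genes detected on all 6 arrays were tested, which leaves fewer genes and removes those undetected in one line. It was 909 to 1391 without any 1 clone. By at least 2-fold it was 760, and 301 without background correction, 467 with an offset of 50 and 409 with detection on all 6 arrays. For the first 2 of these the cause was not tested. Without any 1 clone it was 660 to 769. The other alternatives kept both counts within 1.5 times, and a replicate block on clone number called 1669 genes, 828 of them by at least 2-fold, with 1374 of the 1435 (95.7%) among them. Beside the results where it is given, that block also ended the call of Ccn2 (adjusted p = 0.0552).

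Signs turned for genes whose probes disagree. With the mean of a gene's probes Ercc5 differed by 1.26 (adjusted p = 0.000485), H3c14 by 0.55 (adjusted p = 0.036) and Stx8 by -0.59 (adjusted p = 0.0118). Mff differed by -0.50 in the deposited values (adjusted p = 0.118) and by -0.41 with detection on all 6 arrays (adjusted p = 0.116). The naming rule and the added genes gave 195 called genes, not all of them described above. Of these, 144 kept their call under every alternative that tested them, and 51 lost it under at least 1. Signal near background limits the bounds of genes undetected in one line.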
